A study of Mus musculus with 8 samples.

Results

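The DNA replication machinery is described here through 44 genes that were chosen by their annotated roles. They cover the replicative helicase, the licensing and firing of origins, the replicative polymerases with their clamp and clamp loader, single-strand binding, the joining of Okazaki fragments, the supply of deoxynucleotides, and the packing and methylation upkeep of new DNA. Expression was measured in primary mouse embryonic fibroblasts (MEFs) of C57BL/6J embryos at day 13.5 postcoitum, either wild type (WT) or *Btg1* KO (*Btg1*-/-). *Btg1* belongs to a family of anti-proliferative genes. Untreated cells were kept in DMEM with Glutamax, a stable glutamine dipeptide, and starved cells were kept for 16 hours in DMEM without glutamine. The usual medium held 10% fetal bovine serum and 55 µM b-mercaptoethanol. Per the methods, serum was heat-inactivated where glutamine was present and dialyzed where it was absent, so effects of serum and glutamine cannot be told apart in any comparison of starved with untreated cells. Each of the 4 groups had 2 arrays, described in the labels as biological duplicates, and no source used here says which embryos they came from. The p-values therefore measure the spread between these 8 samples only.

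Replication starts at origins, where the origin recognition complex, Cdc6 and Cdt1 load the ring-shaped MCM helicase before S phase. Geminin blocks Cdt1 once replication has begun. Cdc45 and the GINS complex then turn the ring into a moving helicase, primase and polymerase alpha start each strand, and polymerases delta and epsilon extend them on the PCNA clamp. Ribonucleotide reductase, thymidine kinase and thymidylate synthase provide the building blocks. Many of these genes are transcribed by E2F factors at the entry into S phase, so in bulk RNA of cultured fibroblasts their level tends to follow how many cells cycle. Fewer cycling cells and less RNA per cycling cell cannot be told apart in these data.

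The deposited values are on a log2 scale, 1 value per named gene and array, so a difference of 1 is a doubling. Rows are headed by upper-case names, such as MCM2, and for ORC1L (*Orc1*) and CDC45L (*Cdc45*) an older symbol was used. Of the 44 genes, 42 were matched to a row, and *Gins1* and *Gins2* were not analysed here. A row was tested when its mean reached 3, the background level of the study's methods, in at least 1 group, which held for 39 of the 42 and for 12691 of 18132 rows. *Mcm8* (a helicase of recombination), *Pola1* (the catalytic subunit of polymerase alpha) and *Pole2* (a subunit of polymerase epsilon) stayed below 3 in every group mean. Tests were made with limma on all 8 arrays, and p-values were adjusted over all 12691 rows by the Benjamini-Hochberg method. A gene is said to rise or fall, or to be called, at an adjusted p under 0.05. Of the 39 tested genes, 36 were at 3 or more in all 4 groups.

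The *Btg1* row measured 11.17 and 11.23 in untreated WT cells against 9.36 and 9.16 in untreated *Btg1*-/- cells, and 12.40 on both arrays against 10.40 and 10.45 after starvation. It was lower in *Btg1*-/- cells at both times, and no source used here places its probe relative to the deletion. Array medians lay between 3.78 and 3.81 and replicates correlated across genes with r of 0.981 to 0.987. Of 12 fibroblast markers 11 were tested, with array medians of 10.46 to 11.17. Of 12 macrophage markers 11 were also tested. Their median was 5.01 to 5.46 on the WT arrays, 8.47 at both times in *Btg1*-/- replicate 1, and 6.33 and 6.24 in *Btg1*-/- replicate 2, while *Ptprc*, the common leukocyte antigen, stayed below 3. The 4 tested epithelial markers had array medians of 3.28 to 4.60 and the 5 tested endothelial ones 3.47 to 4.56.

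The promoters of the 4 genes with the most negative mean response over both genotypes, *Tk1*, *Rrm2*, *Prim1* and *Lig1*, are shown first, since this response is the main pattern in the values. Those of *Mcm6* and *Cdt1* were added after the values were seen, *Mcm6* because it held the most 8-letter E2F words and *Cdt1* because it was the gene that rose. All are RefSeq promoters of the assembly GRCm38.p6, from 250 bases before to 50 bases after the annotated start, written 5′ to 3′ along the gene's strand. The words searched, known as E2F sites, had 8 letters, TTTCCCGC, TTTCGCGC, TTTGGCGC and TTTGCCGC, and were also searched without their first T. Capitals mark these 7-letter forms on either strand.
Tk1 (thymidine kinase, chr11:117825965-117826264, minus strand): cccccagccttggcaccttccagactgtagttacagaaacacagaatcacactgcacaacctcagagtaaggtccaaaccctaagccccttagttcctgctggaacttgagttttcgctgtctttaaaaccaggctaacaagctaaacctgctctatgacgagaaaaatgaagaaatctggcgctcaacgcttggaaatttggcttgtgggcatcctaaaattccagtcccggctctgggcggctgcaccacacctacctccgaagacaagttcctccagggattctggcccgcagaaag
Rrm2 (small subunit of ribonucleotide reductase, chr12:24708004-24708303, plus strand): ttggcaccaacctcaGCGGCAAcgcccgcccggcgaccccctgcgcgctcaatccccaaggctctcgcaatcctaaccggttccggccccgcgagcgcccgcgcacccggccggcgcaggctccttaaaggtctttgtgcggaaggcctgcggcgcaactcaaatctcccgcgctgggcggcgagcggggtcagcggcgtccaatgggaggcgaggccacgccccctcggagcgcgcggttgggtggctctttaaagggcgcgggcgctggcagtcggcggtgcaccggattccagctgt
Prim1 (catalytic subunit of primase, chr10:128014965-128015264, plus strand): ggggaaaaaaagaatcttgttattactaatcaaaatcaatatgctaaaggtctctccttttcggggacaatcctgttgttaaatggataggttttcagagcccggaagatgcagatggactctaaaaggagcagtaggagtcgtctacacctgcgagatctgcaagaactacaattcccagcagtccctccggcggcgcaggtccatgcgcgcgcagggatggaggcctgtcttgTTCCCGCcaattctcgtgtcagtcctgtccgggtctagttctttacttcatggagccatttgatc
Lig1 (DNA ligase of Okazaki fragments, chr7:13278576-13278875, plus strand): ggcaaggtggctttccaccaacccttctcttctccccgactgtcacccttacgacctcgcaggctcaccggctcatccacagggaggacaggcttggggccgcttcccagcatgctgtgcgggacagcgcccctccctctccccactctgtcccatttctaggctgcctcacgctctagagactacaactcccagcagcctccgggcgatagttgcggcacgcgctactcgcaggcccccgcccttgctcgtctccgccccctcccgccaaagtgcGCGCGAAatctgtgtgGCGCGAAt
Mcm6 (helicase subunit, chr1:128359656-128359955, minus strand): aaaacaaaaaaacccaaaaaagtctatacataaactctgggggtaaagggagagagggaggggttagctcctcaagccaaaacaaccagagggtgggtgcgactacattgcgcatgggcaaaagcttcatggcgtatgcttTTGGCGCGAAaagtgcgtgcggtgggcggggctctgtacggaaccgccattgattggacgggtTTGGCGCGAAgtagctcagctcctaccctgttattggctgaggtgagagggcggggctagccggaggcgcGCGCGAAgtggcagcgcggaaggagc
Cdt1 (loader of the helicase, chr8:122567765-122568064, plus strand): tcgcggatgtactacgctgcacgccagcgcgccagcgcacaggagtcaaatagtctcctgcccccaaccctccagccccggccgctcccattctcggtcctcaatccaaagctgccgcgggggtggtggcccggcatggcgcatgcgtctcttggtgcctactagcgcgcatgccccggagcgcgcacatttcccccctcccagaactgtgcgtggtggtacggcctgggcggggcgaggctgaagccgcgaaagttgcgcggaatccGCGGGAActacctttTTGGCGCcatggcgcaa

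*Tk1*, which had the most negative mean response, held none of these words in its window. *Rrm2* held 1 with its first base at position -235 from the start, and *Prim1* held 1 at position -15. The *Lig1* promoter, the one of 3 listed for the gene with most 8-letter words, held 2 after the start, and 1 of them had 8 letters. *Mcm6* held 5, of which the forward and reverse words overlap in 2 places, and 3 of the 5 had 8 letters. In *Cdt1* there were 2, both after the start, and 1 had 8 letters. Of the 44 genes, 36 matched a promoter in the table. A word of 8 letters stood in 15 of these (41.7%), against 2.6% of 27025 genes and 2.26% of all 32851 promoters of this length. Words of 7 letters stood in 25 (69.4%), against 10.9% of genes and 9.57% of promoters. Among genes that fell in WT cells, 17 had a promoter and 6 of these held an 8-letter word, while 5 of 15 did among tested genes that were not called. A match describes the letters of a window and no binding was measured.

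Glutamine starvation lowered 19 of the 39 genes in WT MEFs and raised 1, against 11.6% of all rows lower and 13.1% higher. In *Btg1*-/- MEFs 18 fell and 1 rose, against 7.24% lower and 8.44% higher. The median log2 fold change of the 39 was -0.62 in WT and -0.67 in *Btg1*-/- cells, where that of all rows was 0.03 in both. In 29 genes both starved WT arrays lay below both untreated ones, in 1 above, and in 9 they overlapped (29.6% of all rows lay below and 33.4% above). In *Btg1*-/- cells these numbers were 30, 1 and 8 (25.5% and 29.6%). The median change within a replicate number was -0.68 and -0.65 in WT and -0.64 and -0.68 in *Btg1*-/- cells. The same 17 genes fell in both genotypes and *Cdt1* rose in both. *Tyms* and *Dut* passed the threshold in WT cells alone and *Gins3* in *Btg1*-/- cells alone, and 18 passed it in neither.
The number of calls moved with single arrays, and so did the number of all rows called. Fewer of all rows were called in WT cells without WT replicate 2, and in *Btg1*-/- cells in each run named below. Whether the 39 genes lost calls more readily than all rows was not tested. Of the 20 WT calls, 12 held whichever array was left out, and 8 genes were called without both arrays of WT replicate 2. For *Btg1*-/- cells 8 of the 19 calls held throughout, 9 genes were called without untreated replicate 2 or without starved replicate 1, 12 without both arrays of replicate 1, and 11 without an intensity trend.

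**Figure D1:**
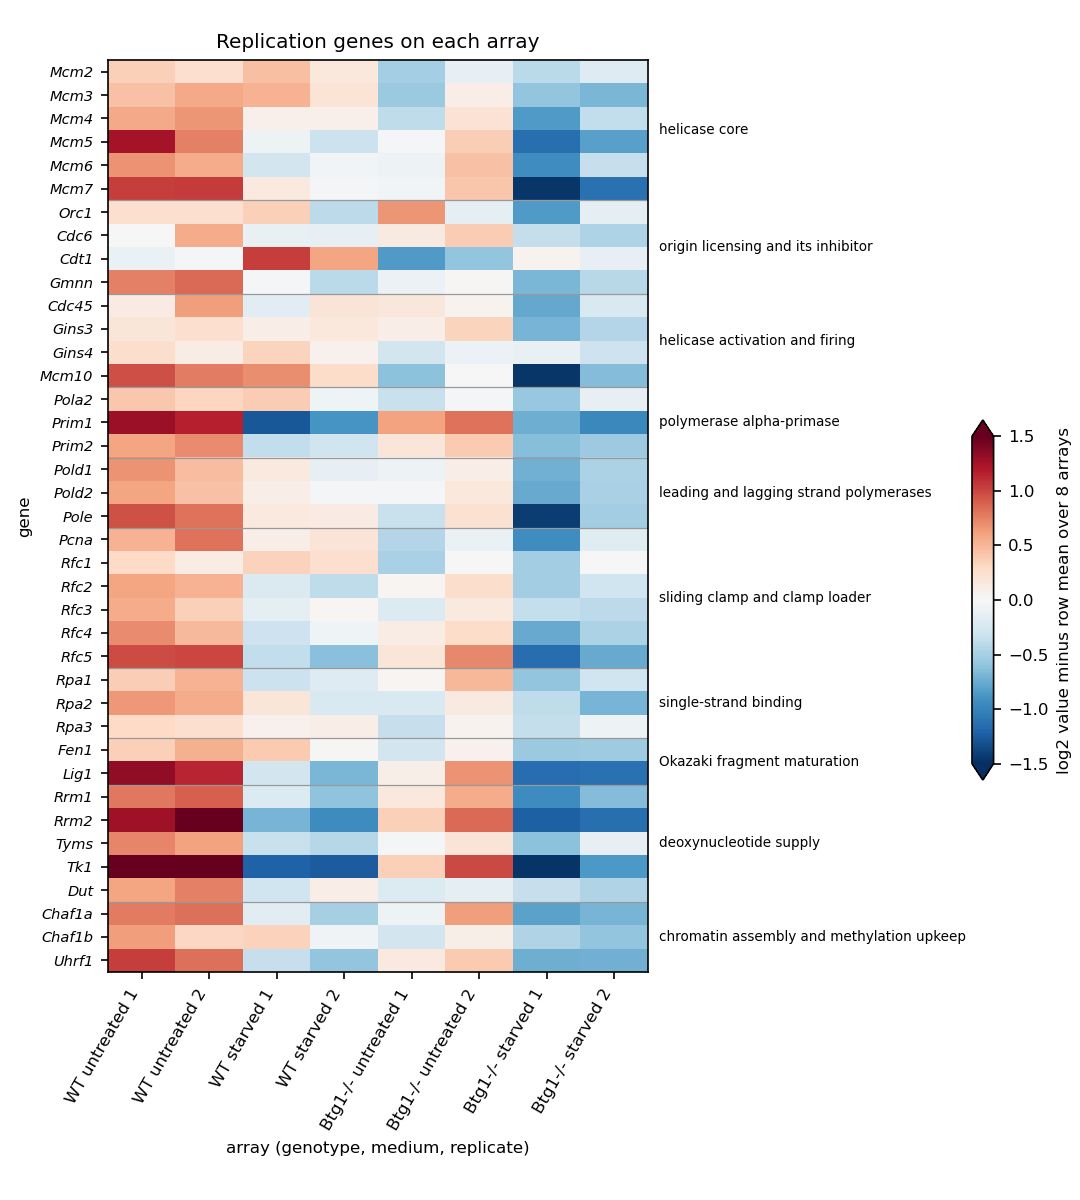
Each row is 1 of the 39 tested genes and each column 1 of the 8 arrays, and the colour is the log2 value minus the mean of the row, limited to 1.5 in either direction. The untreated WT arrays are the reddest columns and the starved *Btg1*-/- arrays the bluest, while the *Cdt1* row runs the other way with starvation.

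Enzymes of deoxynucleotide supply had the largest median change of the role groups, -1.25 in WT and -1.15 in *Btg1*-/- cells, and all 5 fell in WT MEFs. *Rrm2* encodes the small subunit of ribonucleotide reductase, the enzyme that makes deoxynucleotides from ribonucleotides, and is made mainly in S phase. It measured 9.87 and 10.10 on the untreated and 7.90 and 7.66 on the starved WT arrays, and 8.96 and 9.45 against 7.38 and 7.47 in *Btg1*-/- cells. All 4 starved arrays lay below all 4 untreated ones. The log2 fold change was -2.20 in WT (standard error 0.18, adjusted p = 4.91e-05 from limma) and -1.78 in *Btg1*-/- cells (standard error 0.18, adjusted p = 0.000372), which is 4.60-fold and 3.44-fold lower. Its partner *Rrm1*, the large subunit, went from 11.04 and 11.14 to 10.04 and 9.64 in WT and from 10.41 and 10.80 to 9.30 and 9.60 in *Btg1*-/- cells. It fell 2.38-fold and 2.23-fold (adjusted p = 0.000704 and 0.00214 from limma), again with no overlap.
*Tk1*, the cytosolic thymidine kinase of the salvage route, had the largest fall in WT cells. Its untreated WT arrays read 7.65 and 7.53 and its starved ones 4.65 and 4.62. The untreated *Btg1*-/- arrays read 6.23 and 6.86 and the starved ones 4.40 and 5.01. The untreated values of the genotypes did not overlap and the starved ones did. The fall was 7.75-fold in WT (log2 fold change -2.95, standard error 0.30, adjusted p = 0.000137 from limma) and 3.59-fold in *Btg1*-/- cells (-1.85, standard error 0.30, adjusted p = 0.00338).
*Tyms*, thymidylate synthase of the de novo route, lay close to the background level of 3. It went from 4.58 and 4.46 to 3.52 and 3.42 in WT cells, a fall of 2.07-fold (adjusted p = 0.0468 from limma). The *Btg1*-/- arrays went from 3.83 and 4.04 to 3.24 and 3.73, and the change of -0.45 (95% interval -1.20 to 0.30) was not called. *Dut*, the pyrophosphatase that keeps uracil out of DNA, had the smallest change of this group. Its WT arrays went from 6.71 and 6.88 to 5.82 and 6.22, a fall of 1.72-fold (adjusted p = 0.0327 from limma). Without *Btg1* it went from 5.91 and 5.97 to 5.77 and 5.67, with a change of -0.22 (95% interval -0.73 to 0.29). The starvation response of *Tyms* differed between genotypes by 0.60 (standard error 0.47, adjusted p = 0.883 from limma) and that of *Dut* by 0.56 (standard error 0.32, adjusted p = 0.836), so calls in 1 genotype do not show that the genotypes differ.

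**Figure D2:**
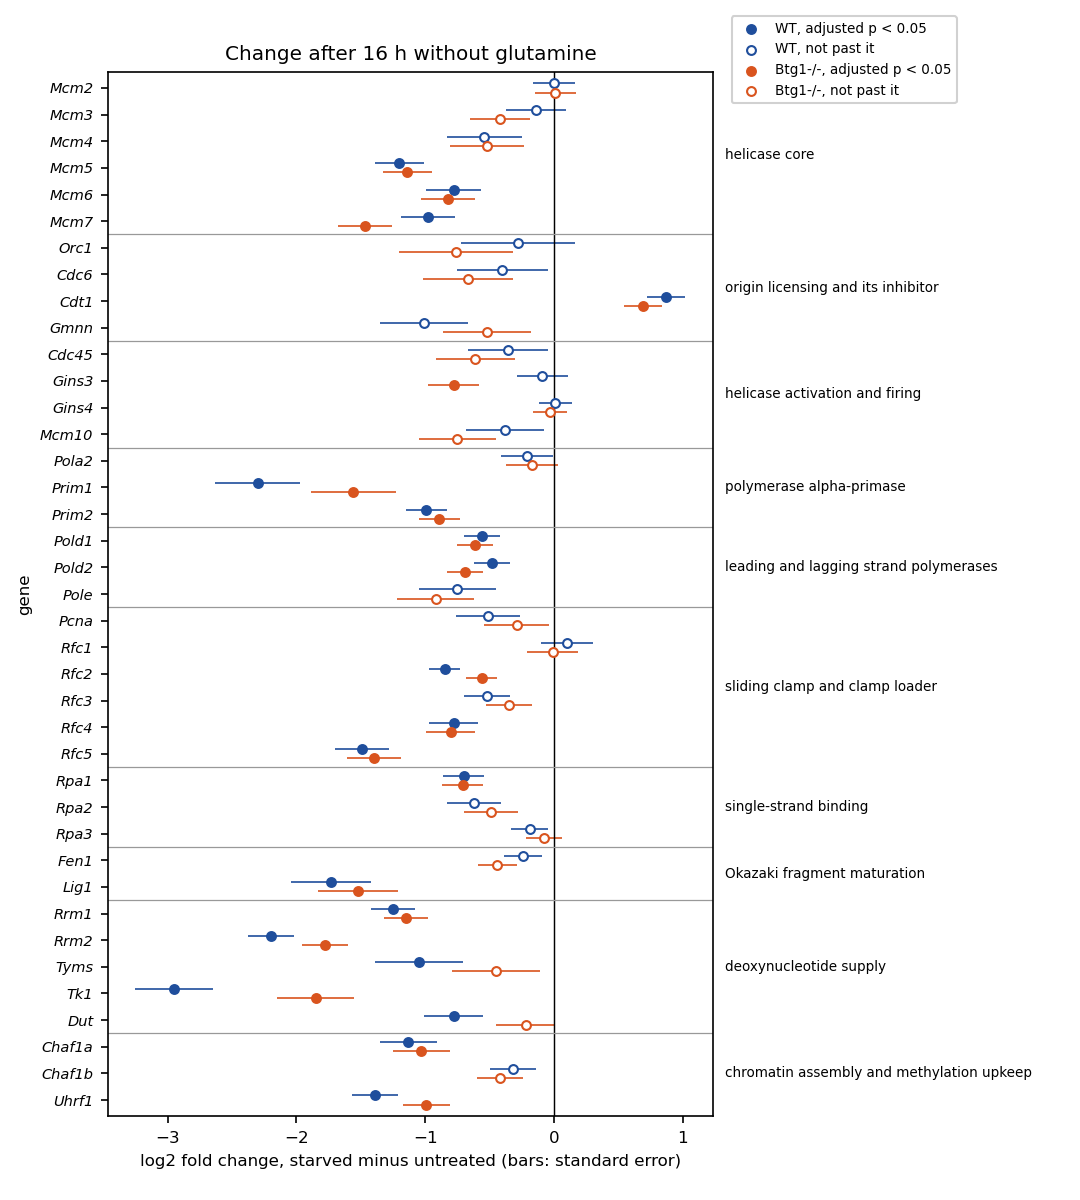
Log2 fold change after 16 hours without glutamine for the 39 tested genes, in the order of their roles, with bars of 1 standard error; filled points passed an adjusted p of 0.05. The 17 genes that fell in both genotypes have filled points of both colours left of 0, *Mcm2* lies at 0.00 and 0.01, and *Cdt1* lies right of 0 at 0.87 and 0.69.

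Calls differed among the 6 subunits of the MCM ring, and no test compared the genes with each other. *Mcm5*, *Mcm6* and *Mcm7* fell in both genotypes and *Mcm2*, *Mcm3* and *Mcm4* were not called in either. *Mcm5* measured 11.81 and 11.32 on untreated and 10.48 and 10.24 on starved WT arrays, and 10.53 and 10.93 against 9.43 and 9.75 in *Btg1*-/- cells. It fell 2.30-fold and 2.21-fold (adjusted p = 0.00147 and 0.00401 from limma). *Mcm7* read 8.01 and 8.02, then 7.12 and 6.95 in WT, and 6.93 and 7.39, then 5.52 and 5.86 in *Btg1*-/- cells, so the starved *Btg1*-/- arrays lay more than 1 unit below every other array. Its falls were 1.97-fold and 2.78-fold (adjusted p = 0.0076 and 0.00194 from limma), and those of *Mcm6* 1.71-fold and 1.76-fold. *Mcm2*, a subunit of the same ring that also binds histones, read 9.16 and 9.05 before and 9.25 and 8.96 after starvation in WT cells, and 8.29 and 8.68, then 8.39 and 8.60 in *Btg1*-/- cells. These ranges overlapped in both genotypes, and the changes of 0.00 and 0.01 had 95% intervals of -0.37 to 0.37 and -0.36 to 0.38. *Mcm3* changed by -0.14 (95% interval -0.65 to 0.37) and -0.42 (-0.93 to 0.09). *Mcm4* changed by -0.54 (-1.20 to 0.11) and -0.52 (-1.18 to 0.13), and these intervals include the changes of *Mcm6*, -0.78 and -0.82.

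Of the factors that load the helicase, *Cdt1* rose, and it was the 1 gene of the 39 that did. It read 10.21 and 10.29 in untreated and 11.34 and 10.90 in starved WT cells, a rise of 1.82-fold (log2 fold change 0.87, standard error 0.15, adjusted p = 0.00264 from limma). It read 9.45 and 9.71 in *Btg1*-/- cells, then 10.36 and 10.18, a rise of 1.61-fold (0.69, standard error 0.15, adjusted p = 0.015). The *Btg1*-/- rise was no longer called without untreated replicate 1 (0.56, adjusted p = 0.0804 from limma), without starved replicate 1 (0.60, adjusted p = 0.1), without both (0.47, adjusted p = 0.232) or without an intensity trend (0.69, adjusted p = 0.0913). The *Btg1*-/- arrays after starvation thus reached the level of untreated WT cells. *Gmnn*, which encodes its inhibitor geminin, read 4.16 and 4.25, then 3.38 and 3.0 in WT cells, and its change of -1.01 (95% interval -1.76 to -0.26) just missed the threshold (adjusted p = 0.0543 from limma). In *Btg1*-/- cells *Gmnn* went from 3.32 and 3.42 to 2.72 and 2.99, with a starved mean of 2.85 that lies below the background level. *Cdc6*, the loading ATPase, had means of 3.03 and 3.01 in the untreated groups and lay below 3 in both starved ones, so its response has no usable size. *Orc1*, the largest subunit of the origin recognition complex, had standard errors of 0.44 and was not called (-0.28 and -0.76).
None of the 4 tested genes of helicase activation passed the threshold in WT cells, against 11.6% of all rows lower and 13.1% higher. Their median change was -0.22. *Gins4*, a subunit of the GINS complex, measured 10.88 and 10.72, then 10.95 and 10.68 in WT cells, and 10.34 and 10.53, then 10.50 and 10.30 in *Btg1*-/- cells, with overlapping ranges in both. Its changes of 0.01 and -0.03 had 95% intervals of -0.27 to 0.30 and -0.32 to 0.25. Another subunit of that complex, *Gins3*, read 6.66 and 6.73, then 6.57 and 6.63 in WT cells (-0.09, 95% interval -0.54 to 0.36). In *Btg1*-/- cells it read 6.58 and 6.81, then 5.78 and 6.04, a fall of 1.72-fold (adjusted p = 0.0283 from limma). *Mcm10*, which binds the MCM ring at firing, changed by -0.38 (95% interval -1.05 to 0.29) and -0.75 (-1.42 to -0.08). *Cdc45* changed by -0.36 (95% interval -1.06 to 0.35) and -0.61 (-1.32 to 0.09). Neither was called.

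**Figure D3:**
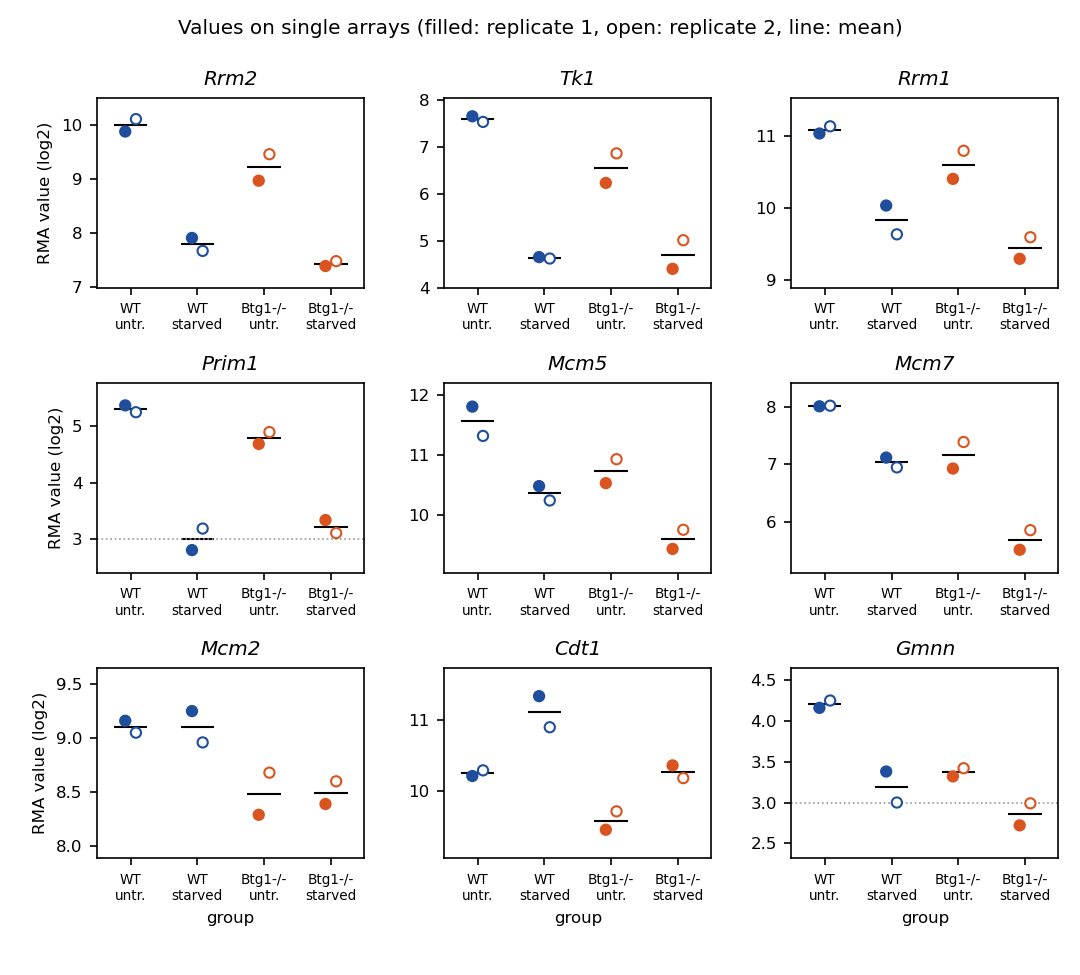
RMA values on the log2 scale of 9 genes on the single arrays, by group, with replicate 1 filled, replicate 2 open, the group mean as a line and the background level of 3 dotted for *Prim1* and *Gmnn*; vertical scales differ between genes. *Rrm2*, *Tk1*, *Rrm1*, *Prim1*, *Mcm5* and *Mcm7* drop with starvation in both genotypes, and *Cdt1* climbs. The untreated and starved points of *Mcm2* overlap within each genotype. They lie from 8.96 to 9.25 in WT and from 8.29 to 8.68 in *Btg1*-/- cells.

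Both primase genes fell in both genotypes. *Prim1*, the catalytic subunit that makes the RNA primers, read 5.36 and 5.24 in untreated WT cells and 2.81 and 3.19 after starvation. Since its starved mean lay just below 3, the fall is given as at least 4.92-fold (adjusted p = 0.000824 from limma). In *Btg1*-/- cells it read 4.68 and 4.89, then 3.34 and 3.11, a fall of 2.94-fold (adjusted p = 0.0118). *Prim2*, the large subunit, fell 1.98-fold and 1.85-fold (adjusted p = 0.00183 and 0.00615 from limma), from 7.86 and 7.98 to 6.90 and 6.97 in WT and from 7.45 and 7.67 to 6.63 and 6.73 in *Btg1*-/- cells. *Pola2*, the accessory subunit of polymerase alpha in the same complex, read 8.40 and 8.32, then 8.37 and 7.93 in WT cells, and 7.66 and 7.97, then 7.42 and 7.87 in *Btg1*-/- cells. Its ranges overlapped and its changes of -0.21 and -0.17 were not called.

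The 3 tested genes of the polymerases that extend the strands had median changes of -0.56 and -0.69. The medians of polymerase alpha-primase were -0.99 and -0.89, and the 2 groups were not compared by a test. *Pold1*, the catalytic subunit of polymerase delta, fell 1.47-fold and 1.52-fold (adjusted p = 0.0166 and 0.0178 from limma) and *Pold2*, its second subunit, 1.39-fold and 1.61-fold (adjusted p = 0.0328 and 0.0103). *Pold2* read 9.33 and 9.17, then 8.84 and 8.70 in WT, and 8.72 and 8.89, then 7.98 and 8.25 in *Btg1*-/- cells. *Pole*, the catalytic subunit of polymerase epsilon, had larger changes of -0.75 and -0.92 with standard errors of 0.30, and was not called (adjusted p = 0.105 and 0.0692).
Within the clamp loader, which opens the PCNA ring and closes it on DNA, *Rfc2*, *Rfc4* and *Rfc5* fell in both genotypes, and *Rfc1* and *Rfc3* were not called. *Rfc5* read 9.04 and 9.07, then 7.69 and 7.44 in WT, and 8.25 and 8.79, then 6.92 and 7.31 in *Btg1*-/- cells. It fell 2.80-fold and 2.65-fold (adjusted p = 0.00077 and 0.0021 from limma). The falls of *Rfc2* were 1.81-fold and 1.47-fold and those of *Rfc4* 1.72-fold and 1.75-fold. *Rfc1*, the large subunit, read 9.48 and 9.30, then 9.53 and 9.44 in WT, and 8.70 and 9.18, then 8.67 and 9.19 in *Btg1*-/- cells, with changes of 0.10 (95% interval -0.34 to 0.53) and -0.01 (-0.45 to 0.43). *Pcna*, the clamp itself, changed by -0.51 and -0.29 and was not called (adjusted p = 0.178 and 0.512 from limma).

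Of the trimer RPA, which coats single-stranded DNA, *Rpa1* fell 1.62-fold and 1.64-fold (adjusted p = 0.00938 and 0.0142 from limma), from 12.24 and 12.39 to 11.55 and 11.68 in WT and from 11.90 and 12.37 to 11.28 and 11.57 in *Btg1*-/- cells. *Rpa2* (-0.62 and -0.49) and *Rpa3* (-0.19 and -0.08) were not called. Of the pair that finishes Okazaki fragments, *Lig1*, the ligase, read 6.30 and 6.11, then 4.69 and 4.28 in WT, and 5.06 and 5.65, then 3.83 and 3.85 in *Btg1*-/- cells. It fell 3.31-fold and 2.87-fold (adjusted p = 0.00321 and 0.0112 from limma). *Fen1*, the flap nuclease, read 10.61 and 10.78, then 10.64 and 10.27 in WT cells, with overlapping ranges and a change of -0.24, and changed by -0.44 in *Btg1*-/- cells (adjusted p = 0.0767 from limma).
Among genes that rebuild chromatin behind the fork, *Uhrf1*, which guides maintenance methylation, read 8.22 and 8.01, then 6.84 and 6.60 in WT, and 7.33 and 7.58, then 6.45 and 6.47 in *Btg1*-/- cells. It fell 2.62-fold and 1.99-fold (adjusted p = 0.000489 and 0.00562 from limma). *Chaf1a*, the large subunit of the chromatin assembly factor that places histones on new DNA, fell 2.18-fold and 2.04-fold (adjusted p = 0.00481 and 0.0135). *Chaf1b*, the next subunit of that factor, changed by -0.32 and -0.42 and was not called.

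Other genes of the same processes were taken from lists written from general knowledge. Of 29 tested of 38 further replication genes, 10 fell and 1 rose in WT cells and 7 fell and 1 rose in *Btg1*-/- cells, with medians of -0.52 and -0.42. *Pclaf*, a partner of PCNA, changed by -2.67 and -2.55, *Top2a*, the topoisomerase that untangles chromosomes, by -1.60 and -1.66, and *Clspn*, a checkpoint mediator at the fork, by -1.55 and -1.40. *Orc5*, a subunit of the origin recognition complex, rose by 1.08 and 0.81. Of 10 further deoxynucleotide genes 1 fell and 2 rose in each genotype, near those shares for so short a list, with a median of 0.04. *Samhd1*, which breaks deoxynucleotides down, changed by -1.47 and -1.48. *Tk2*, the mitochondrial thymidine kinase, rose by 1.10 and 0.87 where cytosolic *Tk1* fell, and *Dctd*, a deaminase of deoxycytidylate, rose by 0.39 and 0.45.
Of 18 tested E2F factors and regulators of S phase entry, 6 fell and 1 rose in WT cells and 4 fell and 1 rose in *Btg1*-/- cells. The cyclin E genes *Ccne1* (-1.60 and -1.31) and *Ccne2* (-1.99 and -2.06) were among those that fell in both. Of the E2F genes, *E2f7* changed by -1.42 and -1.85 and was called in both. *E2f6* passed the threshold in WT cells alone (-0.32) and *E2f3* in *Btg1*-/- cells alone (0.81). *E2f1* changed by -0.04 and -0.14 and was not called, as were *E2f2*, *E2f4* and *E2f5*. Of 17 mitosis genes 15 fell in WT and 13 in *Btg1*-/- cells, with medians of -1.47 and -1.45, so the 39 replication genes had a smaller median change than the mitosis genes. Fibroblast markers were also lower after starvation, 9 of 11 in WT (median -0.80) and 4 of 11 in *Btg1*-/- cells (-0.61), and no macrophage marker passed the threshold. The part of a changed cell make-up in the results was not tested.

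Before starvation the genes already read lower in *Btg1*-/- than in WT MEFs, though none passed the threshold. Of the 39, 38 had a lower mean in *Btg1*-/- cells, with a median difference of -0.55 against -0.02 for all rows. In 34 both *Btg1*-/- arrays lay below both WT arrays, in 0 above and in 5 they overlapped (25.3% of all rows lay below and 22.6% above). No gene was called by limma, where 0.276% of all rows were called lower and 0.386% higher. At an unadjusted p under 0.05 in limma there were 29 of the 39 genes and 2193 of all 12691 rows. The smallest adjusted p among the 39 was 0.0814. *Mcm10* had the largest difference, from 8.26 and 8.06 in WT to 6.67 and 7.30 in *Btg1*-/- cells (-1.17, 95% interval -1.85 to -0.50, adjusted p = 0.0999 from limma). *Tk1* differed by -1.04, *Pole* by -0.94, *Pcna* by -0.93 and *Dut* by -0.86, each without overlap between the genotypes. *Gins3* was level at 6.66 and 6.73 against 6.58 and 6.81, and *Orc1* had means of 3.86 in both.
After starvation 5 of the 39 were called lower in *Btg1*-/- cells and 0 higher, against 0.638% and 1.61% of all rows, and the median difference was -0.48 against -0.03 for all rows. The arrays lay wholly lower in 33, wholly higher in 0 and overlapped in 6 (27.3% and 22.1% of rows). *Mcm7* read 5.52 and 5.86 against 7.12 and 6.95 in WT cells and was 2.54-fold lower (adjusted p = 0.0226 from limma). *Mcm10* read 5.83 and 6.64 against 7.99 and 7.57 and was 2.92-fold lower (adjusted p = 0.0366). *Cdt1*, which rose with starvation in both genotypes, was 1.80-fold lower in starved *Btg1*-/- cells than in starved WT cells (adjusted p = 0.0288 from limma), at 10.36 and 10.18 against 11.34 and 10.90. *Fen1* was 1.68-fold lower (adjusted p = 0.038) and *Pold2* 1.57-fold lower (adjusted p = 0.0488). *Tk1* (0.07), *Tyms* (0.02) and *Prim1* (0.23) were the 3 genes with a mean not below that of WT cells. The starved values of *Tyms* and *Prim1* lay close to the background level of 3, so a genotype difference there is bounded by that level.
In every run below the number of all rows called after starvation fell or rose together with the calls among the 39 genes. This held also without an untreated WT array, which is not part of this comparison. Whether these genes lost calls more readily than other rows was not tested. The 5 calls after starvation depended on which arrays and which trend were used. They were 0 without starved WT replicate 1, without either starved *Btg1*-/- array, without *Btg1*-/- replicate 1, without WT replicate 2 and without an intensity trend. They were 2 without starved WT replicate 2, 1 without either untreated WT array and 8 without either untreated *Btg1*-/- array. In untreated cells more of the 39 genes were called without untreated *Btg1*-/- replicate 2, the replicate in which most of the 39 read higher. More of all rows were called in that run too.

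**Figure D4:**
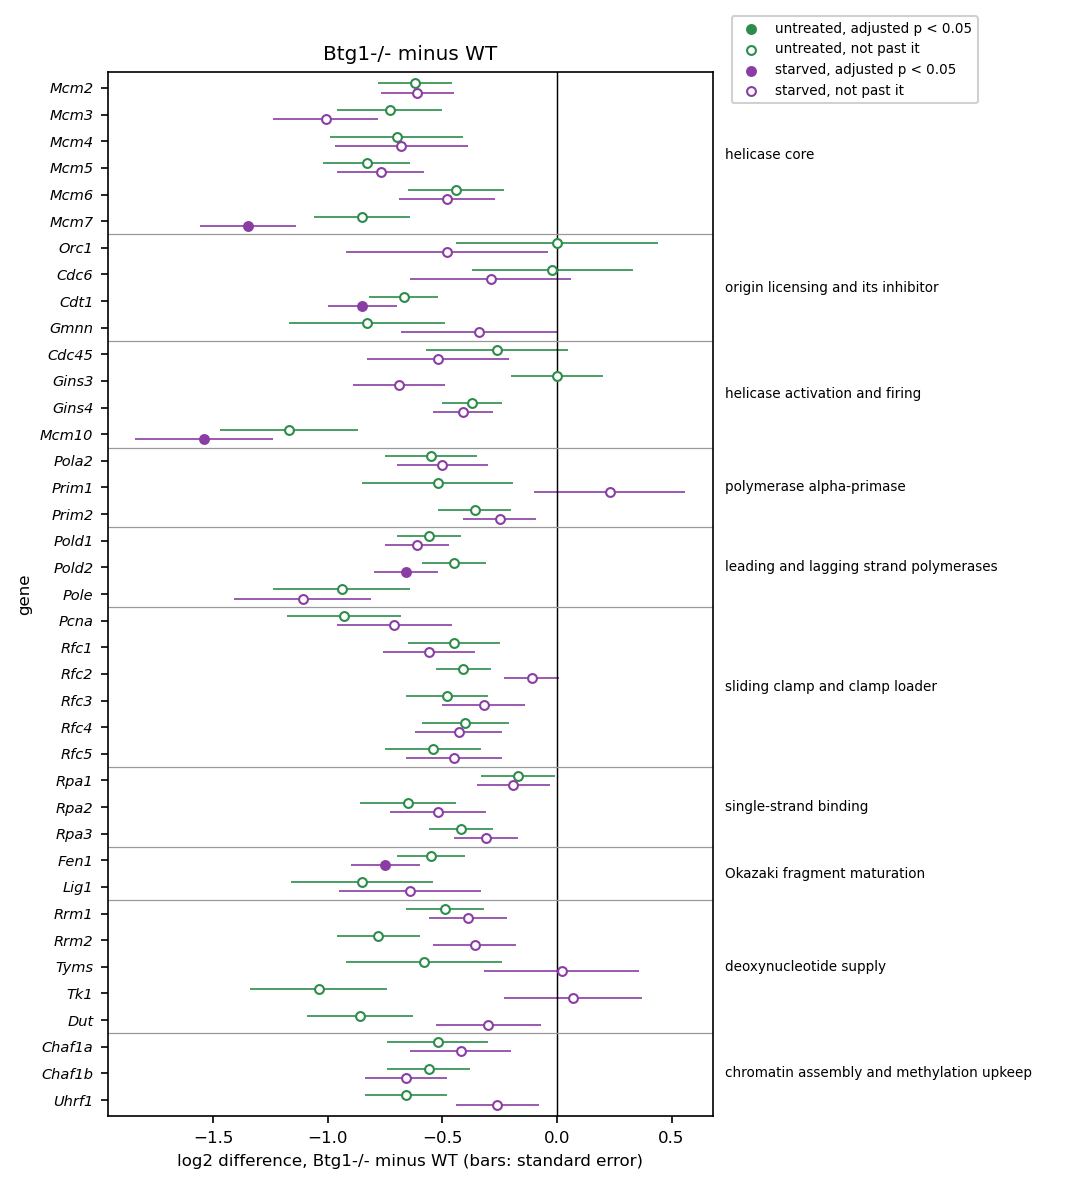
Log2 difference of *Btg1*-/- minus WT cells for the 39 tested genes, untreated in green and starved in purple, with bars of 1 standard error; filled points passed an adjusted p of 0.05. Most points lie left of 0, with medians of -0.55 and -0.48, and the 5 filled points are *Mcm7*, *Cdt1*, *Mcm10*, *Pold2* and *Fen1* after starvation.

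The size of the genotype difference went with the *Btg1*-/- replicate. Against the WT mean, the median difference was -0.71 in untreated replicate 1 and -0.40 in replicate 2, and -0.65 and -0.33 after starvation. Replicate 1 read below replicate 2 in 37 of 39 genes untreated (median -0.35) and in 30 of 39 starved (median -0.26). The median macrophage marker was 8.47 in replicate 1, at both times, and 6.33 and 6.24 in replicate 2. Of the 11 tested macrophage markers 10 were higher in *Btg1*-/- than in WT cells at each time, by a median of 2.08 untreated and 1.96 starved, with 0 and 1 called. Fibroblast markers were called higher in 0 of 11 untreated and 4 of 11 starved in *Btg1*-/- cells, with median differences of 0.22 and 0.69. Mitosis genes were lower, with median differences of -0.75 and -0.69, 17 and 15 of 17 below 0, and 1 and 3 called. Of all rows, 0.386% were called higher in untreated and 1.61% in starved *Btg1*-/- cells, and 0.276% and 0.638% lower. The part of any of these lists in the lower replication genes was not tested.

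No gene had a starvation response that differed between the genotypes at an adjusted p under 0.05 in limma, and none of the 12691 rows did (0% called). Without adjustment 2 of the 39 were under 0.05, as were 815 of all rows. *Tk1* fell less in *Btg1*-/- cells, by 1.11 on the log2 scale (95% interval 0.17 to 2.05, adjusted p = 0.741 from limma), and its starved arrays were alike in both genotypes, at 4.65 and 4.62 against 4.40 and 5.01. *Gins3* had a lower response in *Btg1*-/- cells by -0.69 (95% interval -1.33 to -0.05, adjusted p = 0.763 from limma). The median over the 39 was 0.02, with 21 genes above 0 and 18 below. All 5 genes of deoxynucleotide supply were above 0, from 0.09 for *Rrm1* to 1.11 for *Tk1*, and all 4 of helicase activation were below 0, from -0.05 for *Gins4* to -0.69 for *Gins3*. Of the 10 further deoxynucleotide genes 8 were below 0, with a median of -0.01. The 3 tested genes of polymerase alpha-primase were all above 0 and the 3 of the polymerases that extend the strands all below. None of these differences was called. Standard errors of the differences of the 39 ran from 0.17 to 0.62, so a difference in response that was not called is not shown to be absent.
Across the 39 genes the WT and *Btg1*-/- responses, which come from different arrays normalized together, correlated with Pearson's r of 0.88 and Spearman's rho of 0.79. This describes genes within 1 experiment and is no test over samples.

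**Figure D5:**
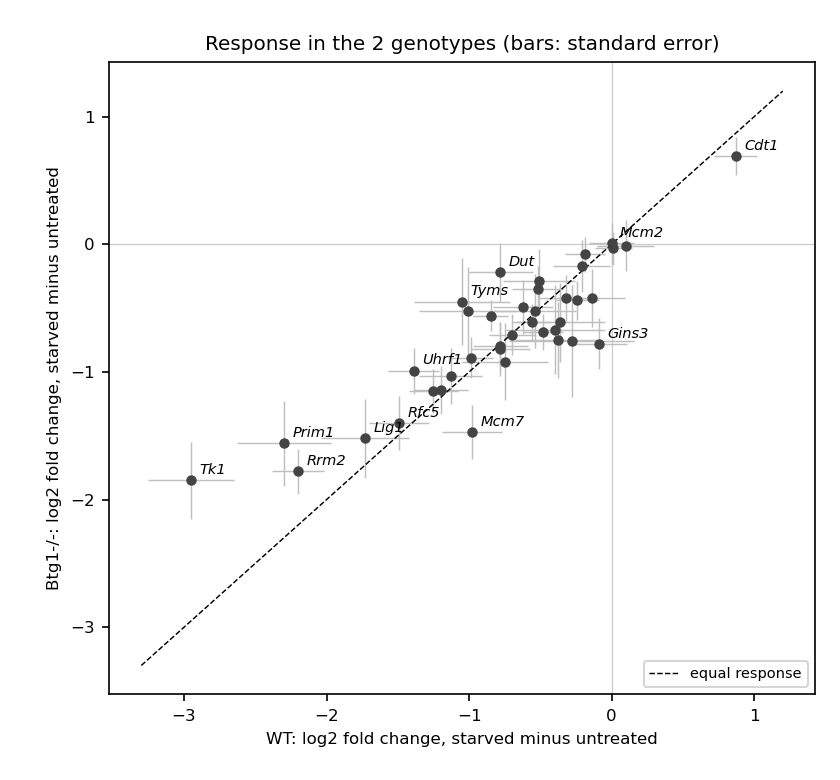
Log2 fold change with starvation in WT (horizontal) and *Btg1*-/- cells (vertical) for the 39 tested genes, with bars of 1 standard error and a dashed line of equal response. The points follow the line with r of 0.88, *Tk1*, at -2.95 and -1.85, lies farthest above it, and *Gins3* and *Mcm7* lie below it.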

How the data were processed

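Total RNA of 8 MEF samples, 2 per group, was hybridised to Illumina MouseRef-8 v2 arrays. The authors normalized the arrays with the RMA method in ArrayStar and deposited a table of log2 values with 1 column per array; the submitters' processing notes name GenomeStudio 2011.1. A second deposited table of group means and fold ratios was not used. Bead counts and detection p-values were not used here, and the number of arrays limits the precision. Groups were taken from the sample titles. The 12691 rows with a mean of at least 3 in a group were fitted with limma 3.58.1 in R 4.3.3, as 4 group means with an intensity trend. There were 4 residual degrees of freedom, and 5.48 came from the prior. Tests were two-sided with Benjamini-Hochberg adjustment. Gene names, chromosomes and promoters came from RefSeq tables of GRCm38.p6. The genes, lists and named genes were chosen with earlier results of these data known. Any of the 44 may be named, with array values for the lowest adjusted p and the smallest change per role. Up to 3 genes were to be named per further list (other replication, deoxynucleotide, E2F and mitosis genes). Marker lists covered fibroblasts, macrophages, epithelium and endothelium. These rules were not followed throughout. Array values are also given for *Rrm1*, *Tk1* and *Tyms*, and none for *Orc1* and *Pold1*. *Orc5*, *E2f1* and other E2F genes were named outside the rules. Deviations of same-numbered arrays were only weakly correlated (r of 0.118 in WT and 0.243 in *Btg1*-/- over 12691 rows). The labels do not say what a number shares. No 2 arrays held identical values. The fit was tested on simulated data. Alternatives were no filter or a level of 5, quantile and median scaling, no trend, a replicate block, only the groups compared, the t-test and the fold rule of the methods, each array left out, and, chosen after the data were seen, *Btg1*-/- replicate 1 or WT replicate 2 left out.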

Additional observations from a re-analysis of the deposited data

How the results depend on the processing

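The directions of the 39 genes' called changes were the same under every alternative run. Of the genes called after starvation, 20 in WT and 19 in *Btg1*-/- cells, the methods' t-test called 0 and 0. With 2 arrays per group it called 1 of the 12691 rows in each of these comparisons, on the same fold changes, so its 0 says little about the 39 genes. The methods' rule of a fold of at least 3, which uses no test, was met by 4 and 2 of the 39 genes. In each genotype this was a larger share than among all rows, and the difference in share was not tested. Without an intensity trend 11 were called in *Btg1*-/- cells. Leaving out 1 array or 1 replicate gave between 8 and 21 calls for WT, between 9 and 19 for *Btg1*-/- cells, 0 to 10 for the untreated genotype difference, 0 to 8 for the starved one and 0 to 0 for the difference in response. The 5 starved genotype calls became 0 with no trend, by the t-test and by the fold rule. With no trend none of all rows was called in that comparison either, and the t-test called 1 of them. With the replicate number as a block 21, 21, 0, 6 and 0 genes were called in the 5 comparisons, which ended 1 call of a single gene and added 5. Median scaling and quantile normalization moved no more than 1 call. The median difference in response, 0.02, changed sign, to -0.14 without untreated *Btg1*-/- replicate 1, -0.10 without its starved replicate 2, -0.07 without starved WT replicate 2, -0.05 without WT replicate 2 and -0.01 without *Btg1*-/- replicate 1, and its highest value was 0.22 without untreated *Btg1*-/- replicate 2. The cause of these changes was not tested beyond the smaller number of arrays. A lone array was assumed to vary like the other groups. The fit of only the groups compared cannot give the difference in response. With 2 arrays per group, the fall of *Prim1* in WT cells and the changes of *Cdc6* in both genotypes and of *Gmnn* in *Btg1*-/- cells are bounded by the background level of 3.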
